A study of Arabidopsis thaliana and Brassica oleracea with 14 samples.

Results

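The drought response common to 2 Brassicaceae species was taken as the mean of their within-species differences between drought and control leaves, over all 14 arrays of the series. The members are 6 drought arrays (3 per species) and 8 control arrays (4 per species), which is every array of the study, and the rule used the labels and no measured value. One species is Arabidopsis thaliana, accession Col-0, and the other its crop relative Brassica oleracea, subspecies alboglabra, line A12DH. All plants were 4 weeks old, grew under 16 h of light and gave leaf RNA. Drought plants went without water for 5 days and reached a relative leaf water content of 45% with a spread of 15, while control plants were watered. The arrays are macroarrays, membranes with spotted DNA probes that were hybridised with cDNA made from 10 µg of RNA and labelled with 33P. Leaves of 5 plants were used per extraction and extracts were pooled before labelling, per the labels, which do not tie an array to its own plants. The p-values therefore measure the spread between arrays, which may be technical.

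When leaves lose water, the hormone abscisic acid accumulates and is bound by PYR/PYL receptors. The occupied receptors hold back protein phosphatases of the PP2C family, named in the title of the series, and this frees SnRK2 kinases that act on stomatal channels and on transcription factors of stress genes. In A. thaliana, transcripts of many PP2C genes of this pathway are themselves induced by drought, and droughted leaves are also known for more mRNA of dehydrins and less of photosynthesis genes. The files attach no gene name to any spot, so none of these genes, and no leaf marker, can be placed on the membrane here. Results are given for positions, as a row letter and 2 column numbers.

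Each membrane was read in 16 rows (A to P) and 48 columns. Adjacent columns were averaged as 1 probe, which gave 24 position pairs in each row. The labels name 522 spotted features, a number that matches neither the spots nor the pairs, and give no map to positions, so that a pair being 1 probe is an assumption. Of these, 96 pairs in even-lettered rows at columns 25 to 48 carry little signal on most arrays and stood in for blanks, since no blank is named. A pair counted as above this low block where its intensity over background was greater than that of 95% of the block on the same array (the 95th percentile). Signals are given as log2 values, normalized after background correction with an added offset, which understates the change of dim spots. The number of arrays limits the precision.

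Several arrays stood apart. On A. thaliana drought 2 the background intensity is 0 at every spot, so that its signals are total intensities, and the spots of a pair correlated at 0.95 even in the low block, against 0.19 or less on the other arrays. A. thaliana control 3 had 76.0% of the other pairs above the low block, against 25% to 32.6% on the other A. thaliana controls. The median background was 2086 to 2465 units on 5 A. thaliana arrays (the 4 controls and drought 3), 731 units on B. oleracea drought 3 and 142 units or less on the remaining 8. Each call below was repeated without these arrays.

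Averaged over both species, arrays of droughted leaves gave more repeatable spots than arrays of watered leaves. Outside the low block, the 2 spots of each pair correlated (Spearman) at 0.27, 0.45, 0.82 and 0.47 on A. thaliana controls 1 to 4 and 0.76, 0.94 and 0.65 on A. thaliana drought 1 to 3. The B. oleracea values were 0.41, 0.47, 0.30 and 0.27 on controls 1 to 4 and 0.86, 0.78 and 0.65 on drought 1 to 3. The groups did not overlap in B. oleracea, and in A. thaliana control 3 lay within the drought range. Group means were 0.500 ± 0.230 (SD, n = 4) and 0.783 ± 0.146 (SD, n = 3) in A. thaliana, and 0.363 ± 0.0932 (SD, n = 4) and 0.762 ± 0.107 (SD, n = 3) in B. oleracea. The mean difference over species was 0.341 (0.283 in A. thaliana, 0.399 in B. oleracea). It passed the test (2-sided exact permutation within species over 1225 splits, p = 0.00408, adjusted p = 0.0163 over 4 array measures). Without A. thaliana drought 2 the difference did not pass, at 0.302 (exact permutation adjusted p = 0.0610). Without both that array and control 3, a setting added after the data were seen, it was 0.355 (exact permutation adjusted p = 0.00571). Control 3 was the only control within the drought range, so the groups then did not overlap in either species. The unadjusted exact permutation p of 0.00286 is the smallest that the 350 splits allow, and no conclusion is drawn from it. Median background in A. thaliana was 2202 to 2465 units on controls and 142, 0 and 2086 on drought 1 to 3. For A. thaliana drought 2 the low block gave 0.95 by the same correlation. A. thaliana drought 3 lay below control 3 and above controls 1, 2 and 4. Median background in B. oleracea was 97.2 to 115 units on controls and 101, 85.7 and 731 on drought 1 to 3. The part of background in the spot agreement was not tested.

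The share of pairs above the low block pointed the same way but did not pass. It was 27.4%, 32.6%, 76.0% and 25% on A. thaliana controls and 61.1%, 35.8% and 43.4% on A. thaliana drought arrays. The B. oleracea shares were 37.2%, 24.3%, 30.9% and 19.4% on controls and 71.9%, 67.0% and 49.0% under drought. The mean difference over species was 20.6 percentage points (exact permutation p = 0.0514, adjusted p = 0.103). Without A. thaliana control 3 it was 26.5 points (exact permutation adjusted p = 0.00286), and without B. oleracea drought 3 it was 23.99 points (exact permutation adjusted p = 0.0483). Control 3 had the highest share of all arrays. Without it the groups did not overlap, and the unadjusted exact permutation p of 0.00143 is the smallest that 700 splits allow. With the limit at the 99th percentile of the low block the sign turned, to -5.76 points. With the pair P47/P48 taken out of the block the difference at that percentile was 11.1 points. The other 2 measures did not pass over all arrays. The log2 median signal over background differed by 0.35 (exact permutation p = 0.365), from 0.11 without A. thaliana drought 2 to 0.61 without A. thaliana drought 1, and the median background by -663 units (exact permutation p = 0.136), the mean of -1528 units for A. thaliana and 202 for B. oleracea. Without B. oleracea drought 3 the median background passed, at -769 units (exact permutation adjusted p = 0.0152), and the B. oleracea difference was -10.8 units.

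**Figure D1:**
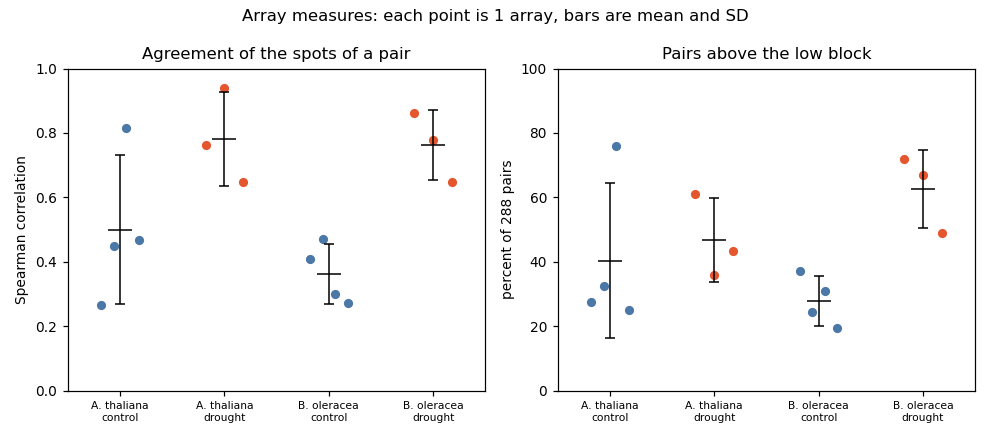
Agreement of the spots of a pair (left, Spearman correlation over the pairs outside the low block) and share of pairs above the low block (right, percent) by group. Each point is 1 array, and bars give the mean and SD of 4 control or 3 drought arrays. In B. oleracea the drought arrays lie above all controls in both panels, while A. thaliana control 3, at 0.82 and 76.0%, lies apart from the other A. thaliana controls.

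Counted pair by pair, detection leaned to the drought arrays. Outside the low block, 207 pairs were above its limit on a larger share of drought arrays than of controls, 57 on a larger share of controls and 24 on equal shares. On all 6 drought arrays 43 pairs were above it and on all 8 controls 17, a count that favours drought because it has fewer arrays. The limit was passed on every drought array and on at most 2 of the 8 controls by 5 pairs, namely A1/A2, A41/A42, C15/C16, J1/J2 and L3/L4, picked after the counts were seen. No pair was above it on all 8 controls and at most 3 drought arrays. The demands are unlike: all 8 controls is harder to meet than all 6 drought arrays, and at most 3 drought arrays easier than at most 2 controls. All these counts rest on the limit described above, pool the species and carry no test. By array, the share above the limit differed by 34.7 points in B. oleracea and 6.48 points in A. thaliana.

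Across all pairs, 0 (0%) passed limma's test of the shared response after Benjamini-Hochberg adjustment at 0.05, and the smallest adjusted p was 0.269. An unadjusted p under 0.05 was found at 54 pairs (14.1%), against 19.2 pairs that this level gives on average when nothing differs. Of the 54, 21 (5.47% of those tested) were higher and 33 (8.59%) lower under drought. When arrays were scaled to their medians instead of quantile normalized, the split was 54 higher and 22 lower, and with the authors' normalized values 36 higher and 25 lower, so the balance of directions depends on the scaling. The 95% interval of the shared change reached 0.33 log2 units to each side at the median pair.

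The fitted changes of the species had the same sign at 217 pairs (56.5%), 90 higher and 127 lower in both, and opposite signs at 167. In the low block 62 of 96 pairs moved the same way and in the remaining positions 155 (53.8%). Among the 13 pairs above the low block on all 14 arrays it was 5. Of the 54 pairs with an unadjusted p under 0.05, 49 had the same sign in both species, a number that the choice on the mean of the species raises. The higher set of 20 (5.21% of the pairs tested) had shared changes of 0.28 to 1.48 with a median of 0.66 log2 units. The lower set of 29 (7.55%) had shared changes of -1.41 to -0.26 with a median of -0.39, and over all pairs the median was -0.03. Adjusted p-values in both sets lay between 0.269 and 0.355.

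The sets differed in how many arrays their members were above the low block on, when drought arrays were counted. In the higher set 15 of 20 pairs were above the low block on at least 7 arrays and 1 belonged to the low block. In the lower set 8 of 29 were above it on at least 7 arrays and 11 belonged to the low block. Over all positions 121 pairs (31.5%) reached 7 arrays and 96 form the block. These counts depend on the change itself, since a pair that is brighter under drought gains its arrays there. On control arrays alone the sets were closer. There 7 of the 20 higher pairs (35%) and 8 of the 29 lower ones (27.6%) were above the low block on at least 4 of 8 arrays, against 80 of all pairs (20.8%). The median shared change was 0.10 in the 170 pairs above the low block on 4 to 10 arrays. In the 79 pairs that reached 3 arrays or fewer it was -0.12, and in the low block itself -0.12. Grouping by arrays reached also counts the drought arrays, so it depends on the change as well. Quantile normalization gives all arrays 1 distribution, and the arrays' shares of detected pairs differed as given above. The part of that difference in the lower set was not tested.

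**Figure D2:**
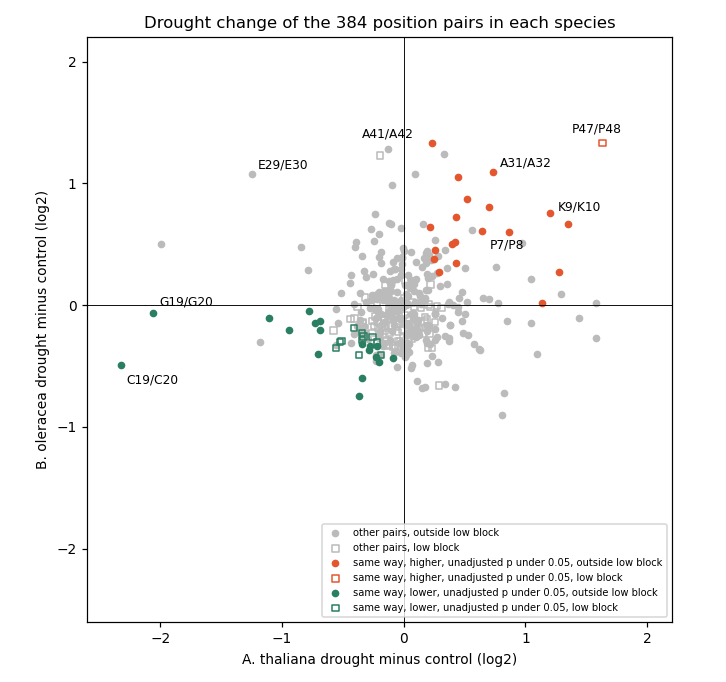
Drought minus control change in A. thaliana (x axis) and in B. oleracea (y axis), both in log2 units, for all position pairs. Red marks the 20 higher and green the 29 lower pairs with the same sign in both species and an unadjusted p under 0.05, and squares are pairs of the low block. P47/P48, A31/A32 and K9/K10 lie far from 0 on both axes, while G19/G20 and C19/C20 lie low mainly along the A. thaliana axis.

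Evidence in each species separately was rare. At 2 pairs (0.521%) the unadjusted limma p was under 0.05 in both species with opposite signs. With the same sign it was so at 3 pairs (0.781%), all higher under drought: A31/A32, P7/P8 and P47/P48. They lie in the outermost rows of the membrane. Rows A and P held 6 of the 20 higher pairs (A1/A2, A31/A32, A33/A34, A41/A42, P7/P8 and P47/P48) and 1 of the 29 lower pairs, and they hold 48 of all pairs (12.5%). Outside the low block, 22 of 36 pairs in those rows had a shared change above 0, with a median of 0.07, against 129 of 252 in the other rows, with a median of 0.01. The outer rows went different ways. With the low block included, 19 of 24 pairs in row A had a shared change above 0 (median 0.13), but 8 of 24 in row P (median -0.07).

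A31/A32 was brighter on average under drought in both species. Its signal was 5.83, 5.79, 6.35 and 5.45 on A. thaliana controls 1 to 4 and 6.31, 6.51 and 6.96 on drought 1 to 3. In B. oleracea the values were 5.19, 5.49, 5.33 and 5.94 on controls and 6.78, 7.32 and 5.65 on drought arrays. In each species 1 array kept the groups from separating, A. thaliana control 3 and B. oleracea drought 3. Its shared change of 0.91 (SE 0.24, limma adjusted p = 0.269) came from 0.74 in A. thaliana and 1.09 in B. oleracea. It passed without B. oleracea drought 3 (1.15, limma adjusted p = 0.0175) and, barely, without A. thaliana control 3 (0.97, limma adjusted p = 0.04997). These are the arrays that disagreed, so leaving them out favours a smaller p. The pair passed in 2 of 33 alternatives. No B. oleracea control was above the low block here, against 2 of 3 drought arrays. The drought mean there was at least 1.33-fold brighter, although drought 3 lay among the controls. Such a bound sets the mean of the bright group against the lowest signal above the low block on each dim array. It describes the means of these arrays, carries no error and sets no lower limit to a drought effect.

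A41/A42 had the smallest p of the shared contrast, and most of it came from B. oleracea. Its signal was 6.55, 6.10, 6.10 and 5.63 on A. thaliana controls and 6.15, 6.51 and 6.32 under drought, ranges that overlap. The B. oleracea readings were 4.95, 5.35, 5.62 and 5.20 on controls, none above the low block, and 5.81, 7.05 and 6.96 under drought, all above it. By the same bound the drought mean was at least 1.36-fold brighter in B. oleracea. The mean of both species, 0.78 (SE 0.20, limma adjusted p = 0.269), combined a change of 1.33 in B. oleracea with one of 0.23 in A. thaliana. Without B. oleracea drought 1, the lowest drought reading of that species, it was 0.96 (limma adjusted p = 0.0198). The pair passed in this 1 of 33 alternatives.

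P7/P8 had nearly equal changes in the species, 0.64 in A. thaliana and 0.61 in B. oleracea. It read 6.22, 6.52, 6.94 and 6.25 on A. thaliana controls and 7.30, 6.47 and 7.60 under drought, with drought 2 among the controls. It read 5.68 to 6.07 on B. oleracea controls and 6.51, 6.05 and 6.83 under drought, again with drought 2 among the controls. Its shared change was 0.62 (SE 0.19, limma adjusted p = 0.269). All 4 B. oleracea controls were below the limit of the low block, and by the same bound the drought mean was at least 1.23-fold brighter there. Without A. thaliana control 3 and drought 2 together, a setting added after the data were seen, the shared change was 0.82 (limma adjusted p = 0.00532). The pair passed in 2 of 33 alternatives.

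P47/P48, at the corner of the membrane, had the largest shared change of all pairs although it belongs to the low block. It was 5.77, 5.67, 5.79 and 5.15 on A. thaliana controls and 8.87, 7.23 and 5.58 under drought. The B. oleracea signals were 6.09, 5.42, 5.44 and 6.57 on controls and 7.34, 6.99 and 7.31 under drought, where the groups did not overlap. Its shared change was 1.48 (SE 0.39, limma adjusted p = 0.269). Without A. thaliana drought 3, the only drought array among the control values, it was 1.88 (limma adjusted p = 0.00578). Leaving out the array that disagreed favours a smaller p. The pair passed in 1 of 32 alternatives, with a limma adjusted p of up to 0.738. Before normalization the pair stood 366, 333 and 9.0 units over background on A. thaliana drought arrays, where the limit of the low block was 7.17, 128 and 62.9 units. On B. oleracea drought arrays it stood 219, 77.3 and 150 units over background, and on controls between -71.4 and 92.8 units over both species.

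K9/K10 was the brightest of the 10 leading higher pairs on average and was above the low block on 12 of 14 arrays. Its signal was 5.97, 6.32, 7.93 and 6.25 on A. thaliana controls and 7.87, 7.61 and 7.99 under drought. On B. oleracea arrays it was 6.37, 7.18, 6.61 and 5.97 on controls and 7.08, 6.71 and 8.08 under drought. All A. thaliana drought arrays were above controls 1, 2 and 4 and near control 3. Drought exceeded control by 0.98 on the shared log2 scale, with an SE of 0.31 and a 95% interval of 0.31 to 1.65 (limma adjusted p = 0.269). Without A. thaliana control 3 it was 1.17 (limma adjusted p = 0.0105), and with cyclic loess it was 0.42. The pair passed in 2 of 33 alternatives.

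The remaining leading higher pairs had smaller or less regular differences, with the same limma adjusted p of 0.269. A1/A2 was at 5.57 to 6.29 on A. thaliana controls and 6.03 to 7.35 under drought, and at 5.76 to 6.98 and 6.47 to 6.99 in B. oleracea. A33/A34 was at 6.01 to 6.87 and 6.41 to 7.91 in A. thaliana, and at 5.47 to 6.75 and 6.39 to 7.04 in B. oleracea. In both pairs B. oleracea control 1 was the high control, and the other 3 controls lay below all drought arrays. L7/L8 had a shared change of 0.45 with an SE of 0.15, and L15/L16 one of 0.39 with an SE of 0.13. In L7/L8 and L15/L16 A. thaliana control 3 exceeded every A. thaliana drought array, and without it both passed (limma adjusted p = 0.04997 and 0.0153). Leaving out the array that disagreed favours a smaller p. L7/L8 passed in 1 of 33 alternatives and L15/L16 in 2 of 33.

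N1/N2 was the only higher pair whose drought and control arrays did not overlap in either species. It was at 5.67, 5.45, 5.80 and 5.70 on A. thaliana controls and 5.99, 5.85 and 5.99 under drought. It was at 5.54, 5.81, 5.61 and 5.59 on B. oleracea controls and 6.05, 5.85 and 5.83 under drought. The groups nearly touched in both species. The shared difference was 0.28 (SE 0.09, limma adjusted p = 0.269), and the pair was above the low block on 4 of 14 arrays. D43/D44, a pair of the low block above its limit on 0 arrays, was the only lower pair without overlap, with values of 5.58 to 5.91 and 5.13 to 5.53 in A. thaliana and 5.62 to 5.72 and 5.31 to 5.59 in B. oleracea. No fold is given for it. Together these are 0.521% of all pairs, and another 0.521% did not overlap in opposite directions.

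**Figure D3:**
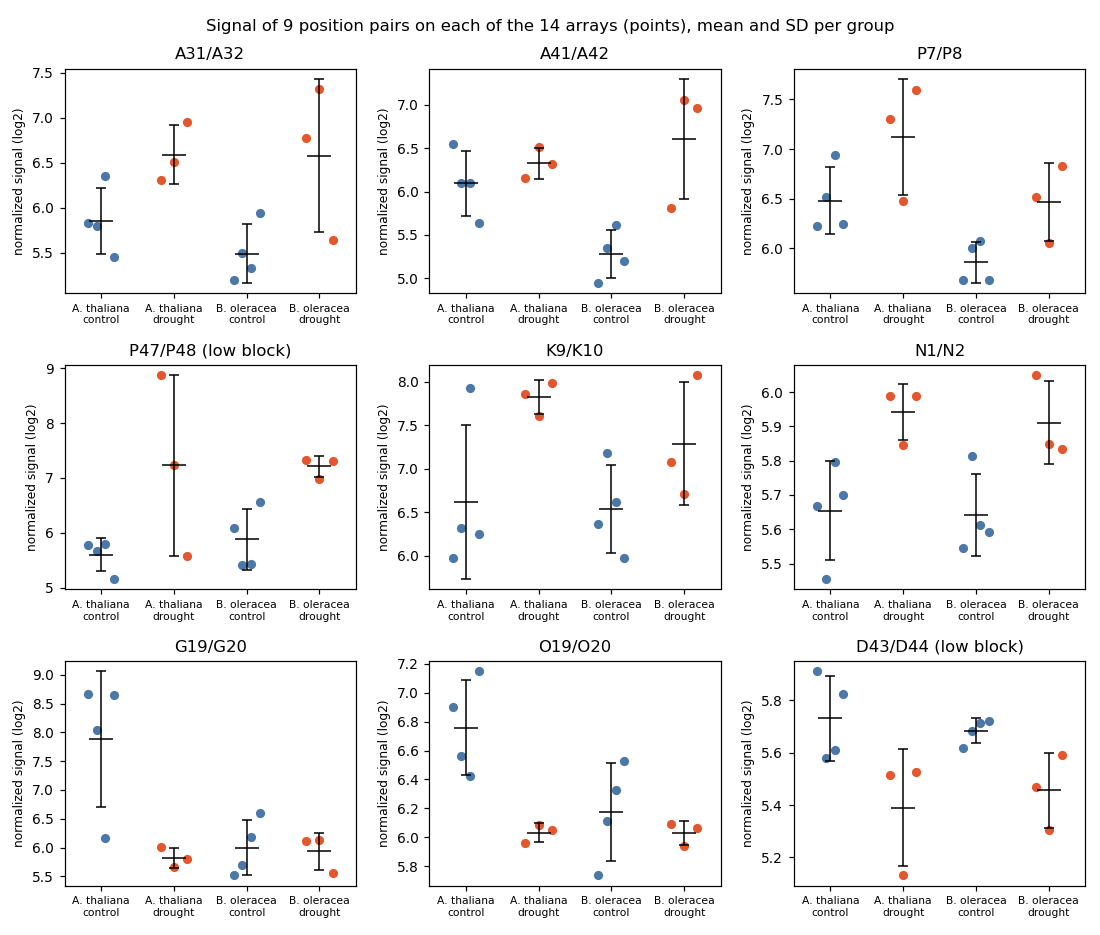
Normalized signal (log2, y axis, own range in each panel) of 9 position pairs on the 14 arrays, with controls in blue and drought in red. Bars give the mean and SD of 4 control or 3 drought arrays. A. thaliana control 3 lies at 7.93 in K9/K10, among the drought arrays, and at 6.17 in G19/G20, below the other controls at 8.04 to 8.66. In N1/N2 and D43/D44 drought and control do not overlap in either species.

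Among the 10 leading lower pairs, only G19/G20 and O19/O20 were above the low block on more than 3 arrays. G19/G20 was at 8.66, 8.04, 6.17 and 8.66 on A. thaliana controls and 6.01, 5.66 and 5.80 under drought. On B. oleracea arrays it was at 5.53, 5.69, 6.19 and 6.59 on controls and 6.12, 6.12 and 5.56 under drought. The groups did not overlap in A. thaliana and overlapped fully in B. oleracea. The shared change of -1.06 (SE 0.34, limma adjusted p = 0.269) is the mean of -2.06 and -0.07, so its size belongs to A. thaliana. It passed without A. thaliana control 3, the lowest control of that species (-1.32, limma adjusted p = 0.00106). The shared change passed in 2 of 33 alternatives. The difference of the responses at G19/G20 did not pass over all arrays (1.99, limma adjusted p = 0.418) and passed without control 3 (2.52, SE 0.38, limma adjusted p = 0.00171).

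O19/O20 was at 6.90, 6.56, 6.42 and 7.15 on A. thaliana controls and 5.96, 6.09 and 6.05 under drought, without overlap. The B. oleracea signals were 5.74, 6.11, 6.33 and 6.53 on controls and 6.09, 5.94 and 6.06 under drought, within the range of the controls. The species' changes of -0.72 and -0.14 gave a shared one of -0.43 (SE 0.14, limma adjusted p = 0.269). M43/M44 and M35/M36 leaned to B. oleracea instead. M43/M44 was at 5.72, 6.17, 6.40 and 6.19 on B. oleracea controls and 5.57, 5.33 and 5.66 under drought. M35/M36 was at 5.70, 5.85, 6.80 and 6.15 and at 5.25, 5.26 and 5.64. In both, 1 of 4 controls was above the low block and none of the drought arrays, and no fold is given. At M35/M36 the first spot of the pair had a shared change of -1.01 and the second -0.10. The other lower pairs, D31/D32, H25/H26, E39/E40, L47/L48 and J45/J46, were above the low block on at most 1 array, and no fold is given for them.

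The spots of a pair were compared as a check within the membrane. Taken alone, the first and the second spot gave a shared change of the same sign at 272 pairs (70.8%), and at all 49 pairs of the higher and lower sets, which were chosen on the mean of both spots. For A31/A32 the values were 0.80 and 1.03, for A41/A42 0.67 and 0.90, for K9/K10 0.96 and 0.99 and for G19/G20 -0.98 and -1.15. With either spot alone 0 pairs passed.

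The pairs above the low block on every array had wide intervals. Of these 13 pairs, 9 had a shared change above 0 and 4 below, with a median of 0.05, quartiles of -0.15 and 0.58 and a range of -0.28 to 0.78. The 95% interval reached 0.74 to each side at their median, so changes of the size seen in the higher set could not be resolved in most of them. C9/C10, the brightest of all, stood at 12.09, the top value that quantile normalization assigns, on 9 arrays and at 10.93 to 11.86 on the other 5, so differences above that ceiling cannot be read. Its changes were 0.18 in A. thaliana and -0.68 in B. oleracea, a shared change of -0.25 (SE 0.16, limma adjusted p = 0.492). P23/P24 was at 9.49 to 10.20 on A. thaliana controls and 9.59 to 9.85 under drought. B. oleracea controls were at 9.36 to 11.38 and drought arrays at 8.69, 8.99 and 12.09, and its shared change was -0.28 (SE 0.46, limma adjusted p = 0.805).

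M21/M22 had the smallest p of the 5 brightest pairs. Its signal was 9.38, 8.93, 10.60 and 8.62 on A. thaliana controls and 10.45, 10.93 and 10.60 under drought. B. oleracea controls gave 9.74, 10.11, 8.74 and 8.92, and drought 1 and 2 gave 10.60 and 9.36, with drought 3 also within the control range. The A. thaliana drought arrays were above 3 of the 4 controls, and the B. oleracea groups overlapped. The shared difference of 0.78 (SE 0.34, limma adjusted p = 0.331) came from 1.28 in A. thaliana and 0.27 in B. oleracea. It depended on the scaling, at 0.11 (SE 0.28) with cyclic loess and 1.73 with median scaling. D3/D4 and J3/J4 had shared changes of 0.69 and 0.80 with SEs of 0.92 and 0.75. Both rest on A. thaliana control 1, at 4.82 and 5.46 where the other 3 controls were at 11.49 to 11.80 and at 10.86 to 11.24. Without that array the shared change of D3/D4 was -0.17, and that of J3/J4 was 0.10.

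Position on the membrane went with direction. Rows I to P at columns 1 to 24 hold 96 pairs, as does each of the other 3 blocks of the membrane, and held 13 of the 20 higher pairs and 2 of the 29 lower ones. In that region the median shared change was 0.10, and the local background, relative to each array's median, was higher on drought than on control arrays by a median of 0.08 log2 units in A. thaliana and 0.21 in B. oleracea. In the higher set itself these values were 0.07 and 0.31, against -0.01 and -0.02 over all pairs. A. thaliana drought 2, with its background of 0, is left out of these background values. Across all pairs the shared change and the change of local background were correlated (Pearson 0.350, Spearman 0.302). The same arrays enter both quantities, and pairs are not independent. The part of local background in the higher set was not tested.

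**Figure D4:**
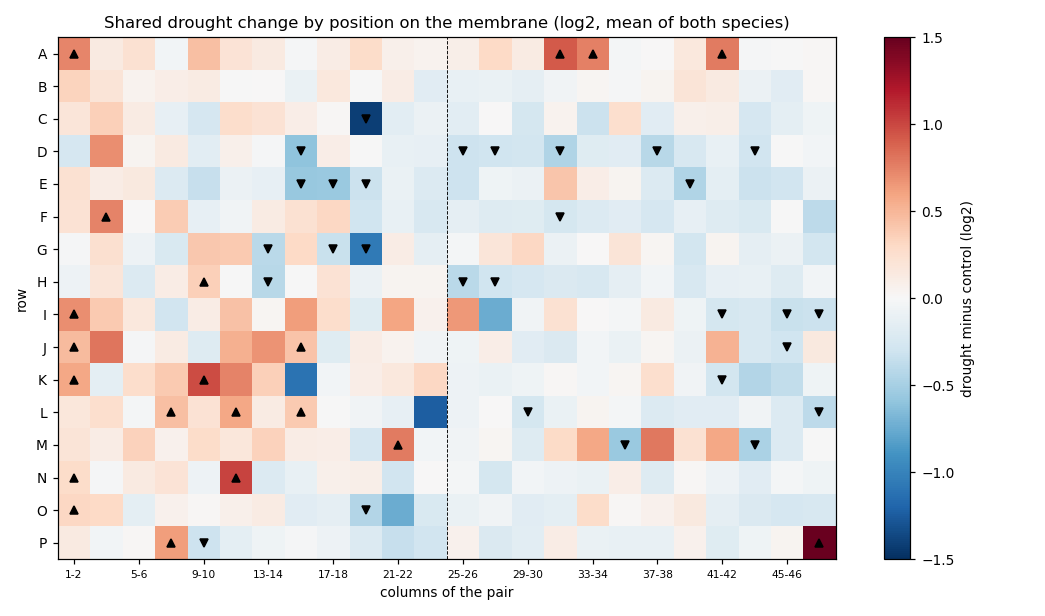
Shared drought change (log2, colour scale) of all pairs by row and columns on the membrane. Upward triangles mark the 20 higher and downward triangles the 29 lower pairs with the same sign in both species and an unadjusted p under 0.05, and the dashed line separates columns 1 to 24 from 25 to 48. Of the upward triangles 13 lie in rows I to P at columns 1 to 24, and P47/P48 is at the lower right corner.

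The number of calls depended on whether the background was subtracted. With no subtraction limma called 32 pairs, 23 higher and 9 lower, all with the same sign in both species. All 23 higher calls lay in rows I to P at columns 1 to 26, and all 9 lower calls in rows A to G at columns 43 to 48. At all 23 the relative local background was higher on drought arrays in both species, by a median of 0.10 log2 units in A. thaliana and 0.67 in B. oleracea, and at all 9 it was lower (-0.20 and -0.33). After subtraction 20 of the 23 and 8 of the 9 kept their sign, with median shared changes of 0.19 and -0.17, and none passed. The 32 include P7/P8, N1/N2, J1/J2 and L3/L4. Other named pairs came out smaller without subtraction: A41/A42 at 0.04 (SE 0.15), A33/A34 at 0.06, A31/A32 at 0.20, P47/P48 at 0.25, G19/G20 at -0.27, O19/O20 at -0.07 and H25/H26 at -0.05.

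The other calls appeared only when arrays were left out. Without A. thaliana control 3 limma called 10 pairs, 5 higher and 5 lower, of which 7 had the same sign in both species. The higher ones were K9/K10, L7/L8, L11/L12, L15/L16 and A31/A32. Among the lower ones, C19/C20 changed by -3.21 in A. thaliana and -0.48 in B. oleracea (shared -1.85, limma adjusted p = 0.000137) and G19/G20 is described above. K15/K16, L23/L24 and O21/O22 were lower in A. thaliana and higher in B. oleracea, so that their shared calls stand for responses of opposite sign. In the same fit the difference of the responses also passed at these 3 pairs and at C19/C20, G19/G20 and L11/L12, and it did not pass at K9/K10, L7/L8, L15/L16 and A31/A32. Without A. thaliana control 3 and drought 2 together, a setting added after the data were seen, the count was 11, with 8 of the same sign. Leaving out A. thaliana drought 3, B. oleracea drought 1 or B. oleracea drought 3 gave 1 call each, P47/P48, A41/A42 and A31/A32. With the image background level (over or under 500 units) as a block 0 pairs passed, and 0 passed within 1 background level per species, a fit in which the single A. thaliana drought array is assumed to vary like the other groups.

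A mean over species is near 0 where their changes are of opposite sign and similar size. For such differences limma called 1 pair (0.26%), E29/E30, which was lower in A. thaliana (-1.25) and higher in B. oleracea (1.07), a difference of 2.32 (SE 0.42, limma adjusted p = 0.0328). Its shared change was -0.09. This call was lost under 16 of 32 alternatives, among them the background level as a block (2.50, limma adjusted p = 0.147), cyclic loess (2.01, limma adjusted p = 0.181), either spot alone, and A. thaliana drought 2 left out (2.03, limma adjusted p = 0.103). It was also lost when any 1 of 8 arrays was left out, namely A. thaliana drought 2 and 3, B. oleracea controls 2, 3 and 4 and the B. oleracea drought arrays. With no background subtraction the difference was 0.43 (limma adjusted p = 0.522). P41/P42 in the low block was the other pair without overlap in opposite directions (limma adjusted p = 0.0913 for the difference). No other pair passed, and 25 (6.51%) had an unadjusted p under 0.05 for the difference.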

How the data were processed

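The authors deposited spot intensities for each array: per the file headers a total intensity, a local background intensity, their difference and a normalized volume. The deposited value table equals the normalized intensity column. Quantification software is not given in the sources used here. Totals were background-corrected with normexp (offset 17.7 units, the median total of 177 units divided by 10), put on the log2 scale, quantile normalized over 14 arrays and averaged over the spots of a pair. limma 3.58.1 (R 4.3.3) fitted 4 group means, and the contrast was the mean of both within-species changes. p-values were adjusted by Benjamini-Hochberg over all pairs. Array measures were tested by exact permutation within species. The code was tested on simulated data. The replicate arrays of a group correlated at 0.452 to 0.891 (Pearson, normalized spots), and none were duplicates. Replicate numbers did not pair arrays: deviations of same-numbered arrays correlated at -0.318 to 0.0634.

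Named are the 10 higher and 10 lower same-way pairs with the smallest p, pairs without overlap in both species, and the 5 brightest. Other names were picked after their values were seen. Members, lists, the low block and tests were chosen with earlier results of these data known. Gene lists could not be applied.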

Additional observations from a re-analysis of the deposited data

Results flagged for a closer look

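In control groups of 4 arrays, 9 of 62 values had 1 array far from the other 3 by Dixon's criterion at 95%, which chance gives in about 1 of 20. Of these, 3 were on A. thaliana control 3: L15/L16 at 6.10 against 5.34 to 5.43, the share of pairs above the low block at 76.0% against 25% to 32.6%, and the log2 median signal over background at 6.92 against 4.79 to 5.14. On A. thaliana control 1, D3/D4 stood at 4.82 against 11.49 to 11.80 and J3/J4 at 5.46 against 10.86 to 11.24. At spot D3 that array had a total of 3421 units under a local background of 3971 units, while control 2 had 4294 over 3185. The median background of A. thaliana control 4 was 2465 units against 2202 to 2213. On B. oleracea control 1, A1/A2 stood at 6.98 against 5.76 to 5.94 and A33/A34 at 6.75 against 5.47 to 5.58. C9/C10 was at 11.86 on B. oleracea control 3, where the others share the top value of 12.09.

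The response differed between the species at E29/E30 by 2.32 log2 units (B. oleracea minus A. thaliana). At P41/P42 every drought array of each species lay on opposite sides of its controls, with a difference of -0.95 that did not pass (limma adjusted p = 0.0913). The drought minus control difference of the median background was -1528 units in A. thaliana and 202 units in B. oleracea. The signed gap between them was 1729 units (2-sided exact permutation p = 0.0114).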

How the results depend on the processing

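The count of shared calls was 0 in the reported fit, 32 with no background subtraction, 0 to 10 without 1 array and 11 without both arrays that stand apart, an alternative added after the data were seen. It was 0 under every other alternative. Pairs with an unadjusted p under 0.05 numbered 54, against 116 with no background subtraction, 83 with array weights, 33 with cyclic loess, 33 among pairs above the low block on 3 or more arrays, 30 with the replicate block, 20 within 1 background level per species, and 40 to 76 without 1 array. The replicate block, which the check of pairing does not bear out, left 0 shared calls and 192 pairs with the same sign. Same-way pairs numbered 119 of 223 with the filter on 3 or more arrays, by fewer pairs, and 188 to 270 under the alternatives that kept all pairs.

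The count for the difference of the responses was 1. It was 7 with no background subtraction, 3 with floored subtraction, 2 with median scaling or the authors' values, 4 with array weights, 9 without both arrays that stand apart and 0 to 7 without 1 array. It was 0 with the larger offset, quantile normalization within species, cyclic loess, the background level as a block or within 1 level, and either spot alone. The additive model has no such term. The cause of these shifts was not tested.

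Over 33 alternatives the 20 leading higher and lower pairs kept their sign wherever they were tested, as pairs chosen for a shared sign may, but their sizes did not hold: with no background subtraction A41/A42 came to 0.04 from 0.78 and P47/P48 to 0.25 from 1.48. Signs turned only in 3 of the 5 brightest pairs: C9/C10 (0.014 with no background subtraction, 1.48 with median scaling), D3/D4 (-0.17 without A. thaliana control 1, and up to 1.01 without another array) and P23/P24 (0.32 with no background subtraction, 1.21 with median scaling, 0.0062 with the background block, 0.0050 with the second spot, 0.013 without B. oleracea drought 1, and down to -0.78 without another array). The causes were not tested. The authors' values moved the median of all pairs from -0.03 to 0.10.

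The difference in the share above the low block was 17.0 to 26.5 points without 1 array, 29.3 points without both arrays that stand apart and -5.76 at the 99th percentile. The spot agreement difference was 0.302 to 0.394 and the median background difference -999 to -477 units without 1 array. Dim signal limits all pairs of the low block.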

Other observations

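A cluster of lower pairs lay near the middle of the upper membrane, noticed after the values were seen. Of the 8 lower pairs that were above the low block on at least 7 arrays, 7 lie in rows C to H at columns 13 to 20, a region of 24 pairs: C19/C20, D15/D16, E15/E16, E17/E18, G13/G14, G19/G20 and H13/H14. Their median change was -0.94 in A. thaliana and -0.13 in B. oleracea. E15/E16 was at 6.89, 6.52, 6.14 and 7.44 on A. thaliana controls and 5.92, 5.30 and 6.19 under drought, with control 3 below drought 3. D15/D16 was at 7.21, 7.43, 6.25 and 7.64 and at 6.37, 5.53 and 6.19, with control 3 below drought 1. Over all 24 pairs of the region 15 were lower and 9 higher, with a median shared change of -0.05, close to that of all pairs. The relative local background there differed by 0.02 log2 units in A. thaliana and 0.04 in B. oleracea between drought and control.

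N11/N12, outside the naming rule, had the second largest shared change of the higher set. It was at 6.30, 6.67, 8.40 and 6.58 on A. thaliana controls and 8.28, 8.46 and 8.28 under drought. In B. oleracea it was at 6.87, 7.13, 7.33 and 5.34 on controls and 7.15, 6.55 and 8.30 under drought. The shared change was 1.01 with an SE of 0.39 (limma adjusted p = 0.286).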
